A study of Mus musculus with 2 samples.

Results

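Natural killer (NK) cell receptors and their adapters were examined in intraepithelial lymphocytes (IELs) of the mouse colon crypt. The 10 genes, selected on their level in these clusters, were taken by symbol from a matrix of 19294 genes. They comprised 6 C-type lectin-like receptors (Klrb1a, Klra5, Klra6, Klrd1, Klrk1 and Klre1), 2 receptors of the immunoglobulin superfamily (Cd160 and Cd244) and 2 adapters (Fcer1g and Tyrobp). All 10 had a row, and all 10 had at least 20 unique molecular identifiers (UMIs) in IELs, the minimum used for folds. The genes were chosen because they separate the clusters of these same cells, so their levels are given as a description and no test was made of them.

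Single colon crypt cells of C57BL/6 mice with the genotype Tcf4GfpCre/+ RosamTmG/+, killed at an age of 4 to 10 months and given no pretreatment, were profiled by Drop-seq. In Drop-seq each cell is lysed in a droplet with a barcoded bead, and a UMI marks every transcript molecule that the bead captures. Cells were sorted as Tcf4 Lin− (no history of Cre expression) and as a population named Tcf4 DP in the labels and MIX by the study, and both sorts were combined under 1 condition in 2 pools, of samples 1 to 3 and 4 to 6. Barcodes ended in X1 (1042 barcodes) or X2 (75 barcodes), with 0 barcode sequences in both sets, and no source ties a suffix to a pool or to a sort. The cells were thus treated as 1 sample, without replicates, and every interval here covers counting error only. The Cre allele is a knock-in that replaces 1 copy of Tcf4, so every mouse was heterozygous for it and no wild-type mouse served as a control. The cells a Tcf4 Lin− sort holds are those in which this driver was not active.

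The study put part of the barcodes in 4 clusters, whose names are kept here: natural IELs (nIELs, 190 cells and 242770 UMIs), induced IELs (iIELs, 186 cells and 284127 UMIs), Epithelial Pigr+ cells (93 cells and 248294 UMIs) and B cells (47 cells and 76713 UMIs). It also assigned 106 barcodes to 3 epithelial subclusters, named stem cells (32), secretory precursors (32) and absorptive precursors (42). Median depth was 1145.5 UMIs per cell in nIELs, 965.5 in iIELs, 1645 in the epithelial cluster and 1503 in B cells, over a range of 504 to 23205 UMIs. The markers fitted the names in part. Trdc, the constant part of the T cell receptor delta chain, had 86 UMIs in nIELs and 26 in iIELs, while Cd8b1, the beta chain of CD8, had 8 and 157. The alpha beta chain genes Trac (203 and 175 UMIs), Trbc1 (229 and 147) and Trbc2 (376 and 245) did not mark the iIELs, with folds of nIELs over iIELs of 1.36, 1.82 and 1.80, and Cd8a, the alpha chain of CD8, had 106 and 191. However, 14 IELs (11 iIELs and 3 nIELs) were listed in an epithelial subcluster as well. They held 101715 UMIs, among them the deepest cell of all, and 0 UMIs of any of the 10 genes. These cells enlarge the denominator of the iIELs in particular, and the folds of nIELs over iIELs for the 10 genes are therefore given with and without them. Without them the folds of Trac, Trbc1 and Trbc2 were 0.973, 1.20 and 1.21.

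NK receptors come in activating and inhibitory forms and let a lymphocyte weigh signals from stressed or altered neighbours against signals of health. Many have no signalling tail that can activate a kinase. Such receptors associate in the membrane with small adapters, of which Tyrobp (also called DAP12) and Fcer1g (the Fc receptor gamma chain) carry immunoreceptor tyrosine-based activation motifs that recruit the kinases Syk and Zap70. T cells of the gut epithelium are known for carrying such receptors beside their T cell receptor. The term natural IEL is used for cells that take on this fate in the thymus, with gamma delta or alpha beta receptors and CD8 alpha homodimers, and induced IELs stem from conventional T cells that met antigen.

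The 6 lectin-like receptors lie together in the NK gene complex on mouse chromosome 6, within 1417.73 kb (GRCm38, positions 128609227 to 130026954, GENCODE M21). Fcer1g (chromosome 1, 171229572 to 171234365, minus strand) and Cd244 (listed as Cd244a, 171559193 to 171609746, plus strand) are 324.827 kb apart. Cd160 lies on chromosome 3 (96798763 to 96829351, minus strand) and Tyrobp on chromosome 7 (30413760 to 30417585, plus strand), where only 126 bases separate it from Hcst, the gene of the adapter DAP10. Cd160 overlaps Pdzk1 and Cd244 overlaps Ly9 on the opposite strand. Because Drop-seq reads come from transcript ends, the last 500 bases of each transcript were compared with all other genes in words of 50 bases. Klrb1a shared 9.84% of its words with Klrb1b, Klrb1c and pseudogenes, Klra6 shared 3.10% with pseudogenes of its family, and the other 8 genes shared none. How the authors counted reads that match several genes is not given in the sources used here, so counts of Klrb1a and Klra6 are uncertain to that extent.

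The genes are shown by their promoters, since members on different chromosomes had levels that were higher in the same cluster. RefSeq promoters (GRCm38.p6, 300 bases around the start of a transcript, most of them upstream) were at hand for 8 of the 10 genes. Both strands were searched for TGTGGT, a core of Runx sites, TCACAC, a core of T-box sites, and AGGAAG, a core of Ets sites, and matches stand in capitals, as do matches to their reverse complements. The first 2 families include known regulators of cytotoxic lymphocytes. No matches of different motifs overlapped in the 10 promoters searched. The promoters of Klrb1a and Klre1 (lectin-like receptors), Cd160 and Fcer1g are shown because each holds at least 1 such match and together they cover both receptor families and an adapter:
Klrb1a, chr6:128622885-128623184, minus strand: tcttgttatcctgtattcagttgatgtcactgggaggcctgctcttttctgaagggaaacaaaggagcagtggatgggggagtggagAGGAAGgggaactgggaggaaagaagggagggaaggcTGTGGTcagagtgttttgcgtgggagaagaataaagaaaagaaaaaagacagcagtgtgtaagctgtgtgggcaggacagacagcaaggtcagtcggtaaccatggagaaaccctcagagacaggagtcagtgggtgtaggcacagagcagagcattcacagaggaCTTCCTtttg
Klre1, chr6:129577963-129578262, plus strand: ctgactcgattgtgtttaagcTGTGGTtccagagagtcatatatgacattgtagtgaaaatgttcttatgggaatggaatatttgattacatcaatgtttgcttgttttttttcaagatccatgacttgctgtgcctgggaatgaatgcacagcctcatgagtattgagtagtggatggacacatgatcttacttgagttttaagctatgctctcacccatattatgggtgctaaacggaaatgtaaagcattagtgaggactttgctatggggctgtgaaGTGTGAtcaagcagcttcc
Cd160, chr3:96829302-96829601, minus strand: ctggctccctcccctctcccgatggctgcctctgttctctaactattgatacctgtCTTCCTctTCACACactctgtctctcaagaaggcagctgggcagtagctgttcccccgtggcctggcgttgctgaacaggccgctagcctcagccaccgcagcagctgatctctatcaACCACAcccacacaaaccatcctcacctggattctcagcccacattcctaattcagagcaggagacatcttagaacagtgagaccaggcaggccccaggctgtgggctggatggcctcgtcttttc
Fcer1g, chr1:171234300-171234599, minus strand: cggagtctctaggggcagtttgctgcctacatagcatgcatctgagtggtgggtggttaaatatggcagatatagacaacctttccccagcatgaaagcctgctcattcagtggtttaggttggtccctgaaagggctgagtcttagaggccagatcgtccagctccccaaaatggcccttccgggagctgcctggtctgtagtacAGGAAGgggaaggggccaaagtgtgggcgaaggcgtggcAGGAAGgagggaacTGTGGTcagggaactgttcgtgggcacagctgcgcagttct

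TGTGGT was found in promoters of 5 of the 8 genes (Klrb1a, Klrk1, Klre1, Cd160 and Fcer1g), TCACAC in 2 (Klre1 and Cd160) and AGGAAG in 4 (Klrb1a, Cd160, Fcer1g and, in a second promoter not shown, Klre1). Among all 32544 RefSeq mouse promoters of the same length, 16.7% held TGTGGT, 14.3% held TCACAC and 35.1% held AGGAAG. Klra5, Klra6 and Cd244 held none of the 3. The promoters of Klra5 and Klra6 were 74.8% identical to each other, beside 79.0% for their longest transcripts. Klre1 and Cd160 have 2 promoters each in the table, and counted by promoter the motifs were in 6, 4 and 5 of 10. The 2 Klre1 promoters overlap, and the same TCACAC match (as GTGTGA) is counted in both. A match describes the letters only and is not a binding site.

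The summed level of the 10 genes was 4898 UMIs per 1000000 (CPM; exact Poisson 95% interval 4623 to 5184) in nIELs, 1242 (1116 to 1379) in iIELs, 1656 (1380 to 1970) in B cells and 12.1 (2.49 to 35.3) in the epithelial cluster. The ratio of nIELs to iIELs was 3.94 (exact binomial 95% interval 3.50 to 4.45), and 2.60 (2.31 to 2.93) without the cells also listed as epithelial. All 10 genes were at least 2-fold higher in nIELs than in iIELs, where 6.97% of the 4189 genes with at least 20 UMIs in IELs were, and the median fold was 4.62 for the 10 genes and 0.990 for all. Without the epithelial-listed cells 7 of the 10 genes passed 2-fold, and 5.72% of 3321 genes did. Cd160, Cd244 and Klre1 then fell short, at 1.76, 1.85 and 1.33. These counts repeat the contrast by which the genes were chosen and show nothing beyond it.

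**Figure D1:**
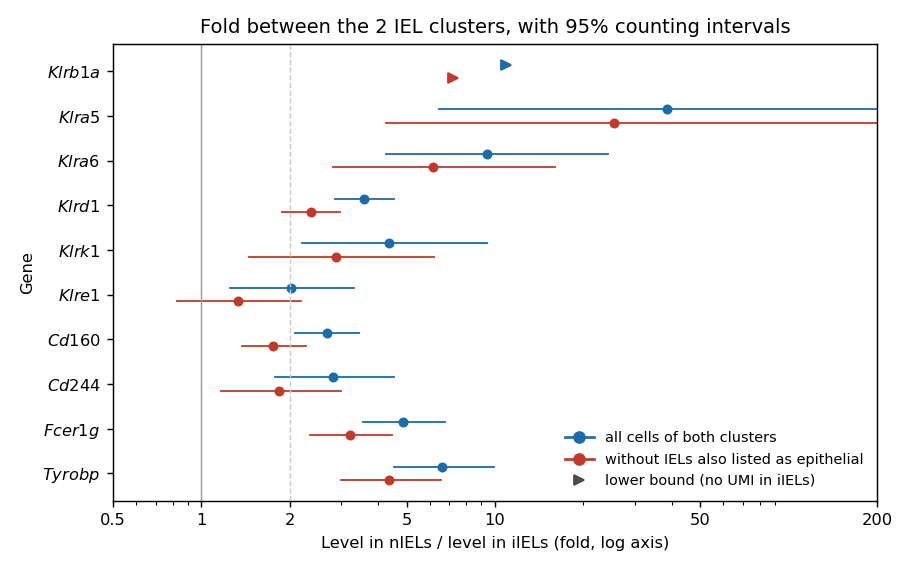
Fold of the summed level in nIELs over that in iIELs (log axis) for each gene, with all cells (blue) and without the IELs also listed as epithelial (red). Lines are exact 95% counting intervals, the dashed line marks 2-fold, and intervals past 200 are cut at the edge. Triangles, labelled as lower bounds, are ratios with an iIEL count of 0 set to 3 counts, and the lower limits of their intervals lie further left. Every red point lies to the left of its blue one, and for Klre1 the red interval of 0.825 to 2.18 holds 1.

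Klrb1a encodes a receptor of the NKR-P1 family. It had 28 UMIs in 22 of 190 nIELs (11.6% of cells, 115 CPM), 0 in 186 iIELs, 1 in B cells and 0 in epithelial cells. The iIEL count of 0 allows up to 10.6 CPM and 1.61% of cells. With the 0 set to 3 counts the ratio of nIELs to iIELs was 10.9, or 7.20 without the epithelial-listed cells. The lower limits of the intervals were 8.31 and 5.48. Klrb1a was the only one of the 10 genes with no UMI in iIELs, and 18 of its 22 positive nIELs had a single UMI.

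Klra5 and Klra6 encode Ly49E and Ly49F, members of the Ly49 family, whose inhibitory forms carry a motif that recruits phosphatases. Klra5 had 33 UMIs in 14 nIELs (7.37%, 136 CPM) against 1 UMI in 1 iIEL (0.538%, 3.52 CPM), a ratio of 38.6 with an interval of 6.47 to 1571, or 25.5 (4.26 to 1036) without the epithelial-listed cells. Its UMIs sat in few cells: the 5 cells with most of them held 66.7% of all, and 1 cell held 7. Klra6 had 56 UMIs in 31 nIELs (16.3%, 231 CPM) against 7 UMIs in 2 iIELs (1.08%, 24.6 CPM), of which 1 iIEL held 5, and the ratio was 9.36 (4.26 to 24.4), or 6.17 (2.81 to 16.1) without the epithelial-listed cells. Most IELs with a UMI of Klra5 or Klra6 were therefore nIELs, and 4 nIELs had UMIs of both (2.28 under independent detection).

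Klrd1 encodes CD94, which pairs with the NKG2 proteins to bind the nonclassical class I molecule Qa-1. It was the receptor detected in most cells. It had 315 UMIs in 128 nIELs (67.4%, 95% interval 60.2 to 74.0; 1298 CPM), 103 UMIs in 53 iIELs (28.5%, 22.1 to 35.6; 363 CPM), 16 UMIs in 10 B cells (21.3%, 10.7 to 35.7; 209 CPM) and 3 UMIs in 3 epithelial cells (3.23%, 0.670 to 9.14; 12.1 CPM). The ratio of nIELs to iIELs was 3.58 (2.86 to 4.52), and 2.36 (1.88 to 2.98) without the epithelial-listed cells. In nIELs up to 9 UMIs were found in 1 cell, and 46 cells had at least 3. The intervals of the shares in iIELs and B cells overlap, and those of nIELs lie above both. Of the 10 Klrd1-positive cells in the B cell cluster, 5 had no UMI of a B cell marker and 3 had a Cd3 UMI.

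Klrk1 encodes NKG2D, an activating receptor for stress-induced ligands that signals through Hcst and, in mice, also through Tyrobp. It had 41 UMIs in 25 nIELs (13.2%, 169 CPM) and 11 UMIs in 8 iIELs (4.30%, 38.7 CPM), a ratio of 4.36 (2.20 to 9.41), or 2.88 (1.45 to 6.20) without the epithelial-listed cells. B cells had 0 UMIs, which allows up to 39.1 CPM. Klre1, whose product forms dimers with Klri1 or Klri2, had 50 UMIs in 32 nIELs (16.8%, 206 CPM) and 29 UMIs in 17 iIELs (9.14%, 102 CPM). Its ratio of 2.02 (1.25 to 3.31) was the lowest of the 10, and without the epithelial-listed cells the ratio of 1.33 had an interval of 0.825 to 2.18 that held 1. A difference in Klre1 between the IEL clusters was therefore not detectable at this depth once those cells were left out.

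Cd160, a receptor for the herpesvirus entry mediator Tnfrsf14, was found in 96 nIELs (50.5%, 43.2 to 57.8; 210 UMIs, 865 CPM), 52 iIELs (28.0%, 21.6 to 35.0; 92 UMIs, 324 CPM) and 5 B cells (9 UMIs). The ratio of nIELs to iIELs was 2.67 (2.08 to 3.45), and 1.76 (1.37 to 2.28) without the epithelial-listed cells. Cd244 encodes 2B4, the receptor of Cd48. It had 67 UMIs in 45 nIELs (23.7%, 276 CPM), 28 UMIs in 23 iIELs (12.4%, 98.5 CPM) and 12 UMIs in 7 B cells (14.9%, 156 CPM). The ratio for Cd244 was 2.80 (1.78 to 4.52) with all cells and 1.85 (1.17 to 2.98) without the epithelial-listed ones. Both immunoglobulin-type receptors were thus found in iIELs as well as in nIELs.

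Among the adapters, Fcer1g had 208 UMIs in 101 nIELs (53.2%, 45.8 to 60.4; 857 CPM) and 50 UMIs in 26 iIELs (14.0%, 9.34 to 19.8; 176 CPM). The ratio was 4.87 (3.56 to 6.77), and 3.21 (2.35 to 4.46) without the epithelial-listed cells. Tyrobp had 181 UMIs in 70 nIELs (36.8%, 29.97 to 44.1; 746 CPM) and 32 UMIs in 15 iIELs (8.06%, 4.58 to 13.0; 113 CPM), at ratios of 6.62 (4.53 to 9.97) and 4.36 (2.98 to 6.57). At least 1 adapter UMI was found in 65.3% of nIELs (58.0 to 72.0) and 17.2% of iIELs (12.1 to 23.4). A UMI of any of the 8 receptors was found in 85.8% of nIELs (80.0 to 90.4) and 53.8% of iIELs (46.3 to 61.1). Without the epithelial-listed cells the adapter shares were 66.3% and 18.3%, and the receptor shares 87.2% and 57.1%. The fold of the summed adapters, 5.55 (4.37 to 7.13), lay above that of the summed receptors, 3.45 (3.01 to 3.98), as did 3.66 (2.88 to 4.70) above 2.28 (1.98 to 2.62) without the epithelial-listed cells.

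**Figure D2:**
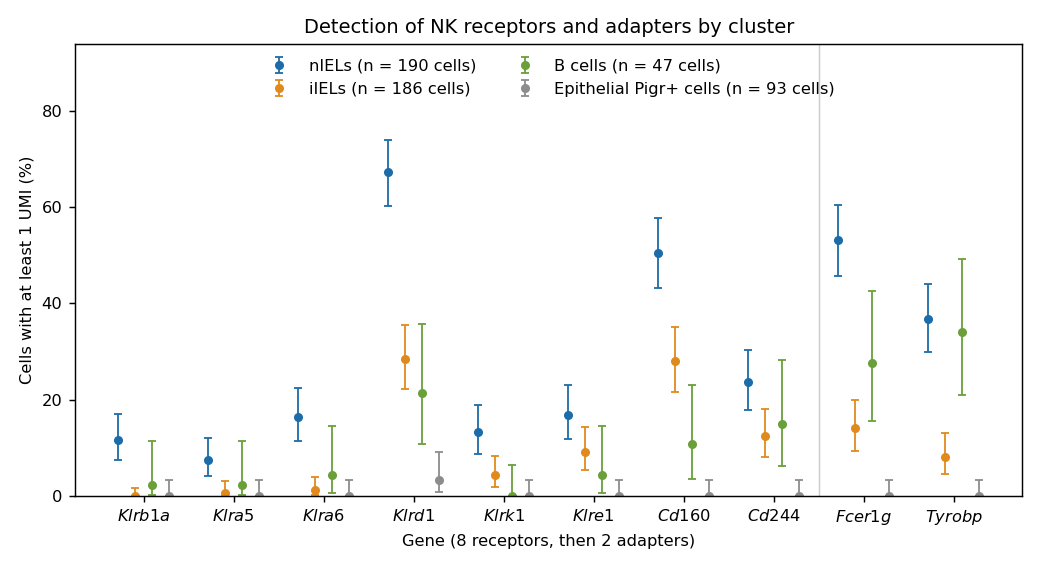
Share of cells (%) with at least 1 UMI of each gene in the 4 clusters, with exact Clopper-Pearson 95% intervals, or, for shares of 0, a line up to the share that a count of 0 allows (3 counts). The nIELs (blue) lie highest for all 10 genes, at 36.8% for Tyrobp beside 34.0% of the B cell cluster, and the epithelial cells (grey) are at 0 except for Klrd1 at 3.23%.

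Epithelial cells were taken as the level of stray RNA. In 248294 UMIs of the epithelial cluster, Klrd1 had 3 UMIs and the other 9 genes had none, which allows up to 12.1 CPM and 3.23% of cells for each. The 3 UMIs fell in 3 cells, and each of the 3 epithelial subclusters likewise held 1 Klrd1 UMI, in a single cell. Shares of Klrd1 were thus 3.12% among stem cells and likewise among secretory precursors, and 2.38% among absorptive precursors, and no difference among them was detectable. The epithelial median depth of 1645 UMIs was above that of both IEL clusters. In nIELs the share of every one of the 10 genes had an interval above 3.23%. In iIELs those of Klrd1, Klre1, Cd160, Cd244 and both adapters did, while Klrk1 (4.30%, 1.87 to 8.30), Klra6 (1.08%, 0.130 to 3.83) and Klra5 (0.538%, 0.0136 to 2.96) did not. The level of Klrk1 in iIELs, 38.7 CPM (19.3 to 69.3), lay above the 12.1 CPM that the epithelial count of 0 allows. The shares of Klra6 and Klra5 in iIELs were below the 3.23% and could not be told apart from background by share. By level, Klra6 was at 40.4 CPM (16.2 to 83.3) in iIELs with a Cd3 UMI, leaving out the epithelial-listed cells. This lay above the 12.1 CPM but rests on 2 cells, and 5 of the 7 Klra6 UMIs were in 1 cell.

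In the B cell cluster Tyrobp stood apart. Its 60 UMIs (782 CPM, 597 to 1007) in 16 of 47 cells gave a level like that of nIELs, with a ratio of nIELs to B cells of 0.953 (0.708 to 1.30). Fcer1g had 24 UMIs in 13 B cells (27.7%, 313 CPM). Of the 47 cells, 34 had a UMI of a B cell marker (Cd79a, Cd79b or Ms4a1), and they held 7 of the Tyrobp UMIs, in 4 cells. The 13 cells without any B cell marker held 53, in 12 cells, along with 16 of the 24 Fcer1g UMIs. By contrast, Cd160 had all 9 of its UMIs and Klre1 both of its UMIs in cells with a B cell marker, and 11 cells of the cluster with a UMI of Cd3d, Cd3e or Cd3g held 8 of the 9 Cd160 UMIs and every UMI of Klrb1a, Klra5, Klra6 and Klre1 in the cluster. The macrophage gene Lyz2 had 63 UMIs in the cluster, in 3 cells that held 11 of the Tyrobp UMIs, and the summed myeloid list of 9 genes was at 899 CPM there, 102 in iIELs, 64.4 in the epithelial cluster and 24.7 in nIELs, with 5 of the 9 genes at 0 in the B cell cluster. The part of such cells in the B cell cluster's Tyrobp was not tested.

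Most nIELs had UMIs of several of the 10 genes. In nIELs 19 cells had none, 22 had 1, 149 (78.4%) had 2 or more and 40 had 5 or more, up to 8 in 1 cell. In iIELs 76 cells had none, 67 had 1 and 43 (23.1%, or 24.6% without the epithelial-listed cells) had 2 or more, up to 6. With each cell thinned to 700 UMIs, which leaves out 33 nIELs and 33 iIELs, the shares with 2 or more were 67.2% and 20.2%. The difference between the clusters was hence present at equal depth.

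**Figure D3:**
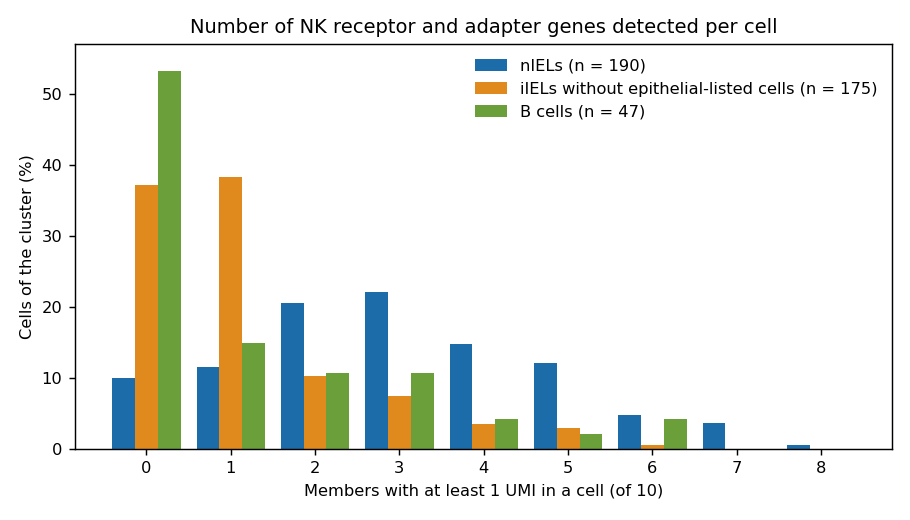
Number of the 10 genes with at least 1 UMI in a cell, as a share (%) of cells in nIELs, in iIELs without the epithelial-listed cells, and in B cells. The nIELs peak at 3 genes, with 22.1% of cells, while 38.3% of these iIELs had 1 gene and 53.2% of B cells had none.

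Receptor and adapter UMIs were often found in the same nIELs. Of 163 nIELs with a receptor UMI, 116 (71.2%, 63.6 to 78.0) had an adapter UMI, against 8 of 27 (29.6%, 13.8 to 50.2) without one, a difference of 41.5 percentage points (21.3 to 56.7). Cells with a receptor UMI were deeper, at a median of 1175 UMIs against 833. At 700 UMIs per cell the shares were 61.3% and 29.2%. Taking each receptor alone, and Klra5 with Klra6, the gap in Tyrobp at equal depth was widest for Klre1. Of 32 Klre1 cells 20 (62.5%) had a Tyrobp UMI, and of 158 others 50 (31.6%), or 51.7% and 27.6% after thinning. The level of Tyrobp was 1576 CPM in Klre1 cells and 546 CPM in the others. For Klrk1, which can use either adapter, 11 of 25 cells (44.0%) had a Tyrobp UMI against 35.8% of the others, and 15 (60%) had an Hcst UMI against 53.3%.

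Over all 45 pairs of the 10 genes in nIELs, 35 had at least 5 cells with both under independent detection. Of these 31 had more cells with both than independence gives, with a median ratio of 1.20, and 27 did at 700 UMIs per cell, with a median of 1.15. The highest ratios before thinning were those of Tyrobp with Klrb1a (15 cells, 8.11 under independence, ratio 1.85, or 1.40 after thinning), with Klra5 (9 cells, 5.16, ratio 1.74, 1.44 after thinning) and with Klre1 (20 cells, 11.8, ratio 1.70, also 1.70 after thinning). At equal depth Klre1 with Tyrobp was first, and the next were Klre1 with Fcer1g (1.62) and Klra5 with Fcer1g (1.54). The lowest before thinning were Cd160 with Cd244 (20 cells, 22.7, ratio 0.880), Klra6 with Tyrobp (11 cells, 11.4, ratio 0.963) and, tied, Klrb1a with Cd160 (11 cells, 11.1, ratio 0.990) and Klrd1 with Cd244 (30 cells, 30.3, ratio 0.990). At equal depth Klrb1a with Cd244 was lowest at 0.690, from 1.54 before thinning, on a mean of 0.93 cells with both against 1.35 under independence. The minimum of 5 cells was applied before thinning only. The order of the pairs at equal depth therefore rests in part on very small counts.

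Some pairs of rarely detected receptors were picked after their values were seen, as they fall under the minimum of 5 cells. Klrb1a was found with Klra6 in 10 cells (3.59 under independence) and with Klra5 in 7 (1.62), and Klrk1 with Klre1 in 10 (4.21). Klrb1a and Klrk1 shared no cell, where independence gives 2.89, and Klrb1a and Klre1 shared 2 (3.71). These counts are small and describe these cells only.

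**Figure D4:**
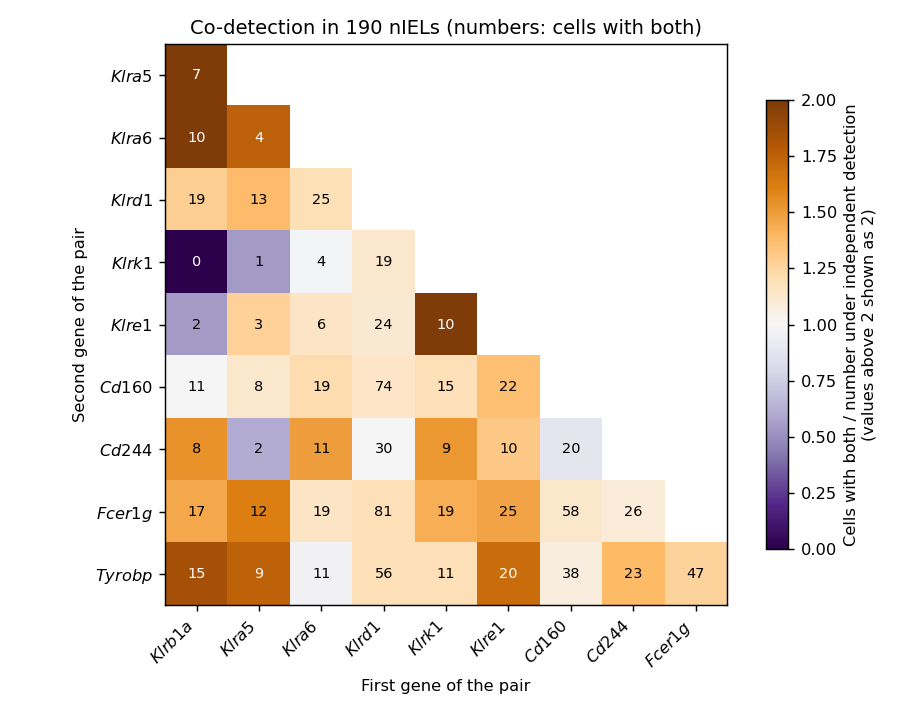
Cells with UMIs of both genes of each pair in 190 nIELs (numbers), coloured by the ratio to the number that independent detection gives (orange above 1, purple below, values above 2 drawn as 2). The Tyrobp row is orange for Klrb1a, Klra5 and Klre1 and near white for Klra6, and the cell of Klrb1a with Klrk1 holds 0.

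The nIELs were further described by their T cell receptor genes, without the epithelial-listed cells. A Trdc UMI was found in 34 nIELs, and 139 others had a UMI of Trac, Trbc1 or Trbc2 and none of Trdc. Klra6 had 1 UMI in the 34 Trdc cells (19.7 CPM) and 55 UMIs in 30 of the 139 (309 CPM), a ratio of 0.0640 (0.00159 to 0.372). Klrb1a had 2 UMIs against 26 (39.5 and 146 CPM), at a ratio of 0.271 whose interval of 0.0311 to 1.08 held 1. Klra5 did not follow Klra6, with 10 UMIs in 2 Trdc cells against 23 UMIs in 12 of the others (197 and 129 CPM). The other receptors and both adapters had ratios between 0.773 (Klrd1) and 1.58 (Cd244), all with intervals that held 1, so that differences in them were not detectable. Median depth was 1313 UMIs in the Trdc cells and 1132 in the others. The 2 sets are not clean, as 29 of the 34 Trdc cells also had UMIs of the alpha beta list, Trbc2 in 23 and Trac in 15. A cell without a Trdc UMI can still carry a gamma delta receptor, since each gene is missed in many cells.

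By another split, 18 nIELs had no UMI of Cd3d, Cd3e or Cd3g, the invariant chains of the T cell receptor, and they were shallower (median 761.5 UMIs against 1158 in 169 nIELs with one). Tyrobp had 55 UMIs in 9 of these 18 cells, at least 2 in each, and 126 UMIs in 61 of the 169. The levels of 2995 and 568 CPM gave a ratio of 5.27 (3.77 to 7.29). Klre1 (654 against 171 CPM, ratio 3.81, 1.81 to 7.45), Klrk1 (490 against 144 CPM, ratio 3.40, 1.43 to 7.28) and Fcer1g (1525 against 812 CPM, ratio 1.88, 1.21 to 2.81) were higher as well. Klrd1 was at 1144 against 1326 CPM and Cd160 at 1035 against 862 CPM, with intervals of their ratios that held 1. Klrb1a, Klra5 and Klra6 had 0 UMIs in the 18 cells. Only for Klra6, with 253 CPM in the others, does the interval of the ratio lie under 1, with an upper limit of 0.822.

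Markers of NK cells and type 1 innate lymphoid cells moved with this split. The summed list of Ncr1, Klrb1c, Eomes, Itga2 and Tbx21 was at 1144 CPM in the 18 cells (21 UMIs in 6 cells) and 113 CPM in the 169 (25 UMIs in 20 cells). Ncr1 had 9 UMIs in 3 of the 18 cells and 5 UMIs in 3 of the 169, Klrb1c had 8 in 3 cells and 9 in 7, Eomes had 1 and 0, and Itga2 had 0 in both. Mast cell genes had 7 UMIs in 1 of the 18 cells. UMIs of the alpha beta T cell list (Trac, Trbc1, Trbc2, Cd8b1 and Cd4) were found in 11 of the 18, at 1253 CPM against 3578 in the 169. Those of the gamma delta list (Trdc, Trdv4, Tcrg-C1, Tcrg-C2 and Tcrg-C4) were found in 12, at 1089 against 2296 CPM. Among other T cell genes, Lck was found in 7 (545 against 483 CPM) and Cd5 in 1 (109 against 22.6 CPM), while Cd2 (0 against 266 CPM) and Cd28 (0 against 4.51 CPM) were absent. The part of NK cells or innate lymphoid cells in the Tyrobp level of the 18 cells was not tested.

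Among iIELs, 85 had a UMI of Cd8b1 and 90 did not, leaving out the epithelial-listed cells, and the adapters were found mostly in the cells without it. Fcer1g had 1 UMI in the 85 Cd8b1 cells (11.2 CPM) and 49 UMIs in 25 of the 90 others (513 CPM), a ratio of 46.0 with an interval of 7.88 to 1853. Tyrobp had 2 UMIs and 30 UMIs (22.3 and 314 CPM), a ratio of 14.1 (3.57 to 122). The 2 adapters together were at 33.5 CPM in the Cd8b1 cells, and at 827 CPM in the others, beside 1621 in nIELs.

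Of the lectin-like receptors Klrd1, Klre1 and Klrk1 were lower in Cd8b1 cells too, while Klrb1a had 0 UMIs in both sets of iIELs and Klra5 had 0 in the Cd8b1 cells and 1 in the others. Klrd1 had 21 UMIs there (234 CPM) and 82 in the other iIELs (859 CPM), a ratio of 3.66 (2.25 to 6.23). Klre1 had 3 and 26 UMIs (ratio 8.13, 2.49 to 42.0), and Klrk1 had 0 and 11, with a lower limit of the ratio of 2.36. Klra6 had 0 UMIs in the Cd8b1 cells and 7 UMIs in 2 of the others (73.3 CPM, 29.5 to 151). It lay above the epithelial background by level there, but not by its share of iIELs. Cd160 (36 and 56 UMIs, 402 and 586 CPM) and Cd244 (14 and 14 UMIs, 156 and 147 CPM) had ratios of 1.46 (0.944 to 2.28) and 0.939 (0.415 to 2.12), so no difference in them was detectable. Depth was similar in both, with medians of 964 and 931.5 UMIs. Gamma delta markers moved with this split in part. Trdc had 0 UMIs in the Cd8b1 cells and 26 UMIs in 11 of the other iIELs, and Fcer1g had 14 of its 49 UMIs in these 11 cells. Tcrg-C1 was at 33.5 CPM in the Cd8b1 cells and 377 CPM in the others. By contrast, Tcrg-C2 was similar (502 and 565 CPM) and Tcrg-C4 went the other way (178 and 136 CPM), while Trdv4 had 0 UMIs and 1 UMI. The myeloid list had 1 UMI in the Cd8b1 cells (11.2 CPM) and 23 UMIs in 4 of the others (241 CPM), of which Lyz2 had 19 in 2 cells, and the epithelial list had 1 UMI and 26 UMIs in 6 cells (272 CPM). The 4 cells with a myeloid UMI held 1 UMI of each adapter, and the 6 with an epithelial UMI held 4 of Fcer1g and 2 of Tyrobp. Without all cells with a UMI of Trdc or of either list, a choice made after seeing these values, 70 iIELs without Cd8b1 had 30 Fcer1g UMIs and 20 Tyrobp UMIs, at ratios of 37.2 (6.18 to 1517) and 12.4 (3.01 to 109) to the Cd8b1 cells. Both splits of nIELs and the split of iIELs use genes of the clustered cells and describe them only.

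**Figure D5:**
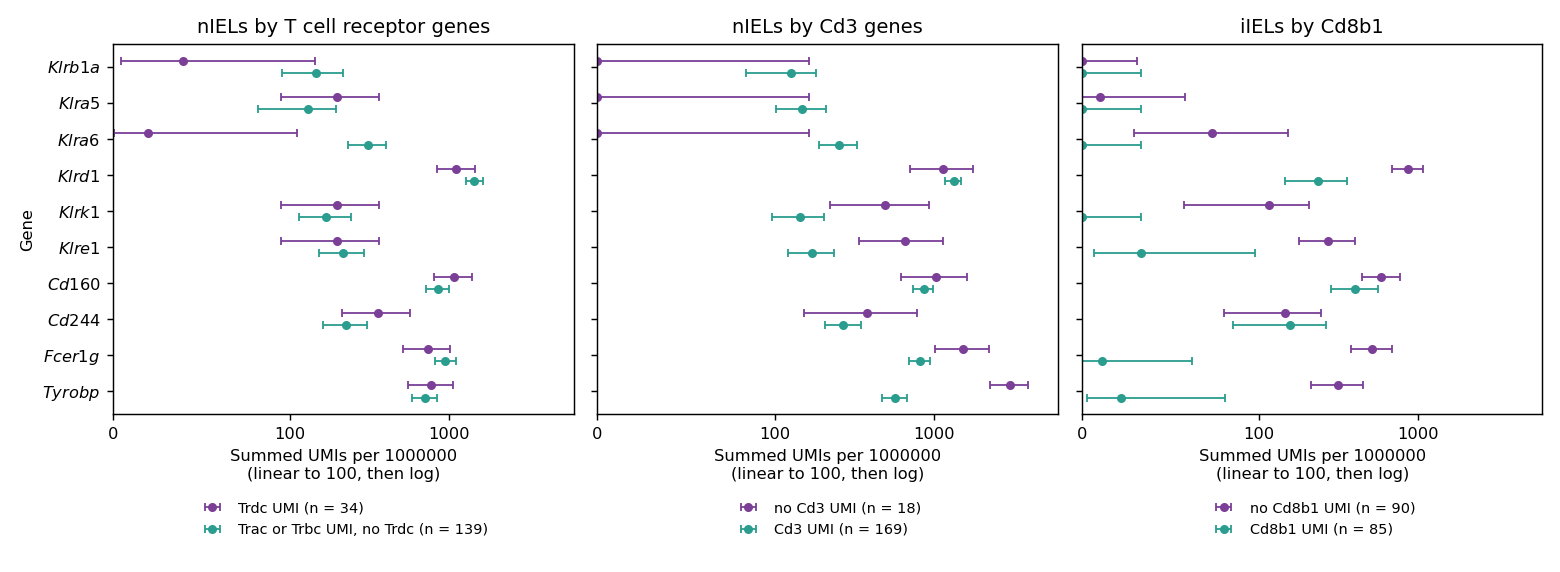
Summed UMIs per 1000000 of each gene (linear to 100, then log) with exact Poisson 95% intervals, in nIELs by T cell receptor genes, in nIELs by Cd3 genes and in iIELs by Cd8b1, all without the epithelial-listed cells. Klra6 is at 19.7 in nIELs with a Trdc UMI against 309, Tyrobp is at 2995 in nIELs without a Cd3 UMI against 568, and Fcer1g is at 11.2 in iIELs with a Cd8b1 UMI against 513.

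The other genes of the pathway came from fixed lists, and since the epithelial-listed cells lower the iIEL level of genes they lack, folds for them are given without those cells first. Of 32 other receptors 28 had a row and 7 had at least 20 UMIs in IELs. Without the epithelial-listed cells 3 of the 7 were at least 2-fold higher in nIELs and 1 was at least 2-fold higher in iIELs, with a median fold of 1.43, beside 3.04 for the 10 genes and 1.00 for all. The 3 were of the Ly49 family: Klra7 (67 against 14 UMIs, fold 3.69, 2.05 to 7.11), Klra1 (17 against 4, fold 3.28, 1.07 to 13.4) and Klra9 (19 against 7, fold 2.09, 0.843 to 5.89). With all cells the same 3 genes stood at 5.60, 3.98 and 3.18. Cd226, which binds nectin-like ligands, was lower in nIELs, with 35 and 55 UMIs (fold 0.491, 0.312 to 0.764), as was Slamf7 with 34 and 47 (fold 0.558, 0.348 to 0.886). With all cells these folds were 0.745 (0.473 to 1.16) and 0.847 (0.528 to 1.34). Cd96 had a fold of 1.43 (0.822 to 2.56), and with all cells 1.98 (1.16 to 3.48), whose interval no longer held 1.

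Partners of the receptors had few UMIs. Klrc1, a partner of CD94, which encodes the inhibitory NKG2A, had 11 UMIs in nIELs and 16 in iIELs (fold 0.530, 0.223 to 1.22), and Klrc2, the activating NKG2C, had 15 and 3 (ratio 3.86, 1.09 to 20.8). The difference between these 2 ratios was not tested, and their intervals overlap. Klri2, a partner of Klre1, had 15 UMIs in nIELs and 0 in iIELs, with a lower limit of the ratio of 2.77, while Klri1 had no row. Klrb1c, which encodes NK1.1, had 17 and 2 UMIs (ratio 6.56, 1.56 to 58.5). With all cells Klrc1 was at 0.805 (0.338 to 1.85), Klrc2 at 5.85 and Klrb1c at 9.95, and the lower limit for Klri2 was 4.20.

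Hcst, the adapter of NKG2D, did not share the pattern of Fcer1g and Tyrobp. Of 5 further adapters 4 had a row, and 0 of the 2 with at least 20 UMIs in IELs were 2-fold higher in either IEL cluster. Hcst had 162 UMIs in nIELs and 158 in iIELs, a fold of 0.791 (0.631 to 0.991), while with all cells the fold was 1.18 (0.941 to 1.47), so its direction turned with those cells. Both intervals lay below those of Fcer1g and Tyrobp under the same choice of cells. Cd247, the zeta chain, had 34 and 23 UMIs (fold 1.14, 0.652 to 2.03, or 1.73, 0.990 to 3.08, with all cells), and Sh2d1a, an adapter of Cd244, had 11 and 8.

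All 14 genes of a signalling list had a row. Of the 10 with at least 20 UMIs in IELs, 0 were 2-fold higher in nIELs without the epithelial-listed cells and 1 was with them. That gene was Lat2, an adapter known from B cells and myeloid cells, with 27 and 14 UMIs and folds of 1.49 (0.753 to 3.07) and 2.26 (1.14 to 4.66). Lat, its relative in T cells, was lower in nIELs under both, with 46 and 83 UMIs (fold 0.428, 0.292 to 0.620), or 0.633 (0.433 to 0.917) with all cells. For the kinases Zap70 (fold 1.03, 0.587 to 1.82), Lck (0.950, 0.719 to 1.26) and Fyn (0.741, 0.490 to 1.12) no difference was detectable without those cells. The same held for Lcp2 (1.36, 0.844 to 2.22), Ptpn6 (1.33, 0.867 to 2.06), Ptpn11 (1.54, 0.689 to 3.69), Vav1 (0.669, 0.293 to 1.51) and Plcg1 (0.890, 0.395 to 2.03). With all cells, however, the intervals of Lck (1.40, 1.06 to 1.85), Lcp2 (1.99, 1.24 to 3.24) and Ptpn6 (1.89, 1.25 to 2.90) lay above 1, so that these calls turned with the epithelial-listed cells, while those of Zap70, Fyn, Ptpn11, Vav1 and Plcg1 held 1 as well. Without those cells the median fold of the 10 genes was 0.989. Inpp5d, an inositol phosphatase, had 9 UMIs in nIELs and 6 in iIELs. Lyn had 9, 3, 5 and 9 UMIs in nIELs, iIELs, the epithelial cluster and B cells.

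Of 18 ligands 12 had a row and 8 had at least 20 UMIs in IELs, of which 2 were at least 2-fold higher in nIELs. Those were Clec2d, a ligand of NKR-P1 receptors (32 against 9 UMIs, fold 2.74, 1.28 to 6.53), and Clec2i of the same family (45 against 17 UMIs, fold 2.04, 1.15 to 3.81), and with all cells the folds were 3.12 and 2.77. H2-T23, which encodes the Qa-1 bound by CD94 with NKG2 proteins, had 119, 134, 27 and 34 UMIs in nIELs, iIELs, the epithelial cluster and B cells, and its fold of 0.752 (0.580 to 0.977) was 1.04 (0.805 to 1.34) with all cells. Cd48 had 63, 66, 0 and 15 UMIs in the same order, and Tnfrsf14 had 1, 3, 1 and 0. Clec2h had 13 UMIs in the epithelial cluster, 8 in iIELs and 0 in nIELs, but 1 and 0 in the IELs without the epithelial-listed cells. Cdh1, the E-cadherin bound by Klrg1, had 59 UMIs in the epithelial cluster, 31 in iIELs and 16 in nIELs. Without the epithelial-listed cells iIELs had 7 and nIELs 13, and the fold turned from 0.604 (0.309 to 1.14) to 1.43 (0.531 to 4.24). Without the epithelial-listed cells the class I genes H2-D1, H2-K1 and B2m had folds of 0.974, 0.896 and 0.928, and with all cells 1.35, 1.22 and 1.28. The NKG2D ligands Raet1d, Ulbp1, H60b and H60c had no row. Raet1e, another of them, had 0, 4, 1 and 0 UMIs in nIELs, iIELs, the epithelial cluster and B cells. It had 0 in both IEL clusters without the epithelial-listed cells.

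The genes whose pattern was most like the sum of the 10 were sought over the 4 clusters in each barcode set, 8 groups in all, by Pearson correlation of log2(CPM + 10). Candidates were 268 other genes with at least 30 UMIs in assigned cells that were at least 2-fold higher in nIELs than in iIELs. Hmha1 (r = 0.979), Cdc42se1 (0.976), Mir142hg (0.971), Cd7 (0.957) and St8sia4 (0.934) came first. The 2-fold filter used all cells, the epithelial-listed ones among them, and the folds were 2.01, 2.01, 2.57, 3.38 and 2.49 in that order. Without the epithelial-listed cells the fold of Cd7 was 2.24 (1.94 to 2.59), and those of the others, which may fall below 2, are not given. Cd7, a surface protein of T and NK cells, had 757 UMIs in nIELs, 262 in iIELs, 62 in B cells and 0 in the epithelial cluster. The 8 groups share libraries and differ in depth, the smallest of them holding 5 cells, and the correlations are a description.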

How the data were processed

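Drop-seq UMI counts of 2 pools of sorted mouse colon crypt cells were used. The authors ran the Drop-seq pipeline, and the deposited counts are raw whole numbers of UMIs for each gene symbol in each barcode. Tools in the submitters' processing notes were Picard 1.137 and STAR 2.5.0, with mm10 and, for admixed human cells, hg19. The annotation, the joining of UMIs and the filters on barcodes are not given in the sources used here.

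The 10 genes, the lists of related genes and the comparisons were chosen with earlier results of these data known. Cells were joined by barcode to the study's clusters (made with Seurat, per its methods), and 601 of the 1117 barcodes carry no cluster. Summed UMIs per 1000000 (CPM) were given exact Poisson 95% intervals, shares of cells exact Clopper-Pearson intervals, and folds exact binomial intervals on the UMIs. UMIs of 1 cell are not independent, so intervals cover counting error only. For 0 counts an upper limit of 3 per group of cells was used, no fold was given where both groups had 3 or fewer, and folds over all genes required 20 UMIs in IELs. Cells were thinned to 700 UMIs in 100 draws and 84 assigned cells below that depth were left out. No doublet caller was run. One marker of the B cell list is not reported here. Cells with markers of 2 classes (37 assigned cells) were left out in 1 alternative. The groups were 1 sample, so no p-value was computed.

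Named were all 10 genes, genes of the pathway lists (other receptors, adapters, signalling, ligands) with at least 20 UMIs in assigned cells or that are direct partners of a member, the 5 genes most alike, and the pairs with the 3 highest and 3 lowest co-detection ratios. Markers of cell types were named where they check a cluster or a split, and further genes and pairs after their values were seen. The splits of IELs by Trdc, Cd3 genes and Cd8b1 were made to describe the clusters. Gene positions are from GENCODE M21 and promoters from RefSeq. On simulated counts with 200 of 4189 genes changed between nIELs and iIELs by 2, 4 or 8 times, median folds were 2.02, 4.09 and 8.23. The true value lay inside the interval for 95.5% of genes changed by 2 times and 97.0% of those changed by 4 times. The simulated counts were Poisson draws, which is what the intervals assume. This coverage thus checks the computation only and does not cover UMIs that cluster in single cells. Python 3.11.15, numpy 2.4.6, scipy 1.17.1, pandas 2.3.3 and matplotlib 3.10.9 were used.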

Additional observations from a re-analysis of the deposited data

Results flagged for a closer look

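The 601 barcodes that the study put in no cluster, with a median of 212 UMIs and 171737 UMIs in all, held UMIs of the genes as well, above the 3 counts that a count of 0 allows. They had 125 UMIs of any of the 10 genes: 40 of Klrd1, 25 of Cd160, 17 of Fcer1g, 13 of Tyrobp, 9 of Klrk1, 6 of Cd244, 5 of Klre1 and 4 of Klra5. Klrb1a and Klra6 had 3 or fewer each. These barcodes entered no comparison. No group of samples was large enough to look for a sample far from the others.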

How the results depend on the processing

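All cells were 1 sample, so the alternatives changed cells, depth or scale. The summed fold of nIELs over iIELs, 3.94, was 8.06 in barcode set X2 alone (17 nIELs and 16 iIELs), 2.60 without the cells also listed as epithelial, 2.90 as a mean of each cell's own CPM, and 2.77 with both changes, a combination added after the data had been seen. With at least 2 UMIs per cell, 63.2% of nIELs and 26.9% of iIELs had a receptor and 38.9% of nIELs an adapter. The adapter share was 88.2% in set X2 and 55.4% at 700 UMIs per cell. Of the 10 genes 3 were at least 2-fold higher in set X2 alone, where the other 7 had fewer than 20 UMIs in IELs. The epithelial share of 3.23% was 0% in set X2, 0% with at least 2 UMIs and 0.5% at 700 UMIs per cell. Of 85 folds of single genes under alternatives 16 moved by more than their interval, and 0 turned in direction. Of 70 single-gene shares 20 moved by more than theirs. The cause was not tested. No paired analysis was possible because the barcodes could not be tied to the 2 numbered pools and were analysed as 1 sample. Depth limits the counts, as Klrb1a, Klra5, Klra6, Klrk1 and Klre1 each had under 60 UMIs in nIELs.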
